A study of Mus musculus with 35 samples.

Results

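The first day of exit from naive pluripotency was examined in TET_WT, the parental mouse embryonic stem cell line of a Tet1, Tet2 and Tet3 triple knockout, by setting 3 ATAC-seq libraries of epiblast-like cells at day 1 (D1) against 3 libraries of the stem cells at day 0 (D0). These 6 libraries are chosen by line and day alone and are 6 of the 35 in the series. ATAC-seq cuts open chromatin with a transposase and sequences the fragments, so that a region with many reads is accessible. The series holds 4 lines at D0, D1 and D2: TET_WT and its knockout TET_KO, which lacks all 3 Tet enzymes, and DNMT_WT and its knockout DNMT_KO, which lacks Dnmt1, Dnmt3a and Dnmt3b. D0 cells were kept in 2i/Lif, a medium with 2 kinase inhibitors and the cytokine LIF, and were then turned towards epiblast-like cells (EpiLC) for 1 or 2 days. Besides TET_WT D1 and D0, the groups used below are TET_WT D2, DNMT_WT D1, D2 and D0, and TET_KO D1 and D0, with 3 libraries each. Whether replicates came from separate cultures is not stated, so p-values measure the spread between libraries, which may be technical, and each genotype is 1 line.

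As background, naive pluripotency is held by a network of transcription factors that includes Nanog, Esrrb, Tfcp2l1, Klf2, Klf4 and Klf5. In 2i/Lif, blocked MEK keeps ERK signalling low, blocked GSK3 raises Wnt and beta-catenin signalling, and LIF acts through STAT3. On transfer to EpiLC conditions the naive network is dismantled within days, and a formative state marked by Fgf5, Otx2, Pou3f1 and the de novo DNA methyltransferases takes its place.

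Values were log2 RPKM (read density scaled to tile length and library depth) in tiles of 2 kb. Of 1231381 autosomal tiles, 75697 were empty in every D0 and D2 library of the series and were left out. The 115568 tiles in the highest 10 percent of the rest, by mean over all libraries, were tested after quantile normalisation. TET_WT D1 libraries held 8107393 to 10000455 reads, against 10350700 to 23686796 at D0, and the median tested tile held 17, 11 and 13 reads at D1, against 41, 18 and 21 at D0. The D1 libraries of the series were processed differently: mitochondrial reads made up 5.62, 19.2 and 14.1% of reads in the TET_WT D1 libraries and 0% at D0, and before normalisation the median tile was 0.63 log2 units higher at D1. Day and processing therefore cannot be told apart within D1 against D0, and changes of DNMT_WT at D2 minus D0, a difference of groups without D1 libraries, are given beside many of the called results. A tile or locus is said to have fallen or risen where limma gave an adjusted p under 0.05 over all tiles or all loci. Log2 changes are D1 minus D0, and the values after ± are standard errors from limma's variance, which is pooled over the groups of all 35 libraries.

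At 338 tiles accessibility fell in TET_WT at D1, and at 363 it rose, which is 0.292% and 0.314% of the tiles tested. Data were simulated with an assumed dispersion of 0.05, 200 changed tiles and no other difference between groups. There 46% of tiles set to fall by 2 log2 units were recovered and 2% of those set to fall by 1. These settings need not match the real libraries, so the shares do not measure the sensitivity of the comparison itself. The difference between lines was not simulated. Of the 701 called tiles, 700 changed by at least 2-fold. In tiles that fell, the median level was 1.12 RPM (reads scaled to the autosomal depth of a library) at D1, against 3.62 at D0. In tiles that rose it was 2.90 at D1, against 0.936 at D0. These tiles were called on those libraries, so the levels describe them and test nothing. Of the 338, 337 had every D1 library below every D0 library, as 8.17% of all tested tiles did, and of the 363, 349 had every D1 library above, as 7.68% did. Fewer cells with a site open and less opening per cell cannot be told apart in these bulk libraries.

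The counts moved with single libraries. With D0 replicate 1, 2 or 3 left out, 124, 120 and 170 tiles fell and 137, 142 and 479 rose; with D1 replicate 1, 2 or 3 left out, 235, 219 and 175 fell and 274, 115 and 123 rose. D0 replicate 3 was the highest of the D0 libraries at 57.4% of the tiles that fell, against 30.1% of all tested tiles. Among the D1 libraries, replicate 2 was the highest at 49.3% of the tiles that rose, against 30.5% of all. The part of these libraries in single calls was measured by leaving each out: of the 25 tiles named below with the largest changes, 23 stayed called in all 6 such fits, and Rab38 and Slc39a11 in 5. Under other settings more calls were lost. With reads in tested tiles thinned to an equal number per library, 10 of the 25 were not called. After median centring in place of quantile normalisation, 5 were not.

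**Figure D1:**
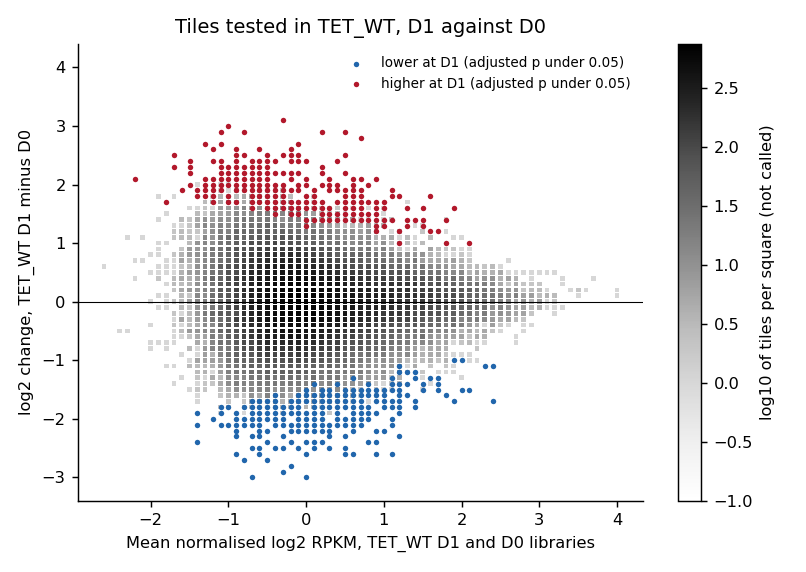
Log2 change between TET_WT D1 and D0 (y axis, log2 units) against the mean normalised log2 RPKM of the 6 libraries (x axis), with tiles binned into squares of 0.1 log2 units. Grey squares hold tiles that were not called, and blue and red points mark bins with the 338 tiles that fell and the 363 that rose, most of them beyond 1 log2 unit.

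Tiles that fell lay inside genes less often than all tested tiles, and farther away more often. Of them, 52.7% overlapped a protein-coding gene, 34.6% lay within 50 kb of one and 12.7% lay farther away, against 64.8%, 26.9% and 8.31% of all tested tiles. Tiles that rose overlapped a gene in 40.8% of cases and lay beyond 50 kb in 30.9%. Of the tiles that fell, 26 held an annotated gene start (7.69%), against 12.4% of all tested tiles, and 15 of the tiles that rose did (4.13%). The 338 tiles formed 320 separate runs, of which 17 had 2 or more adjoining tiles and the longest had 3. Among genes with several falling tiles were Slc39a11, a zinc transporter, with 5 of 65 tiles, Tfcp2l1 with 4 of 34, and Nrp2, a semaphorin and VEGF receptor, with 3 of 28. These 3 genes were named after their counts were seen.

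Promoter sequence is shown for the list genes with an available start in a falling tile, Sp5 and Tfcp2l1, and for Wnt5b, added after its values were seen, because here the measurement falls on the promoter itself. Sp5 encodes a transcription factor that is a direct Wnt target, Wnt5b a secreted Wnt ligand, and Tfcp2l1 a naive pluripotency factor downstream of LIF and STAT3. Sequences run 5′ to 3′ on the strand of the gene, from 250 bases before to 50 after a RefSeq start (GRCm38.p6). Sp5 lies at chr2:70474673-70474972 (plus strand), Wnt5b at chr6:119449337-119449636 (minus strand) and Tfcp2l1 at chr1:118627695-118627994 (plus strand). Capitals mark the TCF/LEF motif ATCAAAG in Sp5 and Wnt5b and the KLF motif GGGCGTGG in Tfcp2l1, each searched on both strands.
Sp5: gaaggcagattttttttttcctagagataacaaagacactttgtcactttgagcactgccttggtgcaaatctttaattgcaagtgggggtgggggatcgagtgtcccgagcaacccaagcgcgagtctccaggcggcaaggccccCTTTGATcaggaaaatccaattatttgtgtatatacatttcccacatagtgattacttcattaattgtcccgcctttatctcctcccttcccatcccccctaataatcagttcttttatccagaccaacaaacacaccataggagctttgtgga
Wnt5b: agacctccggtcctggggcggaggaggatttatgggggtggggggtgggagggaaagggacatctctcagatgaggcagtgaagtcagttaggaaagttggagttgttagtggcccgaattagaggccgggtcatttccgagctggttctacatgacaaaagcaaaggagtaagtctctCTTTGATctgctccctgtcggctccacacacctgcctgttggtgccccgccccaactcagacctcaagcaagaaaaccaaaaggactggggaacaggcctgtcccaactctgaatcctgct
Tfcp2l1: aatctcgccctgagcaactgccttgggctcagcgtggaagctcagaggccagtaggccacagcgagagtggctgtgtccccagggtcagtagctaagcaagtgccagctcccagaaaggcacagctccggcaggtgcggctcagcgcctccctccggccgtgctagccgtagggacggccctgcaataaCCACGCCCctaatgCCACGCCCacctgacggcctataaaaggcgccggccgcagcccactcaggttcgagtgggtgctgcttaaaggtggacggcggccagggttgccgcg
Tfcp2l1 held 2 KLF matches, and Sp5 and Wnt5b 1 TCF/LEF match each. The TCF/LEF motif was present in 5 of 27 promoters in tiles that fell, in 0 of 16 in tiles that rose and in 3.76% of 31396 autosomal promoters of the same length. The KLF motif was present in 2 of 27, 3 of 16 and 5.45%. The ESRRB motif AAGGTCA was found in 0 of 27 promoters in falling tiles, in 2 of 16 in rising tiles and in 4.69% of all. The STAT motif TTCCNGGAA was found in 2 of 27 and in 1.18% of all. The octamer ATTTGCAT and the GRHL motif AACCGGTT were found in none of the 27, and in 1.75% and 0.15% of all. A match describes the letters in the window and not a bound site. Among both the 27 and the 16 promoters, 2 are overlapping entries of 1 gene, and Tfcp2l1 is the only naive list gene among them.

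At the tile with the Sp5 start (chr2:70474001-70476000) the D1 libraries held 23, 20 and 11 reads, against 110, 62 and 64 at D0. Relative to depth this was 2.53, 3.19 and 1.5 RPM at D1 and 4.76, 6.14 and 5.43 RPM at D0, so that every D1 library lay below every D0 library. The tile fell by 1.49 ± 0.37 log2 units (SE; limma, adjusted p = 0.029). The Wnt5b start tile changed by -1.28 ± 0.32 (limma, adjusted p = 0.031). At the Tfcp2l1 start tile (chr1:118626001-118628000) there were 16, 23 and 35 reads at D1, against 120, 50 and 104 at D0, and the change was -1.20 ± 0.29 (limma, adjusted p = 0.020). In DNMT_WT the D2 minus D0 changes at these tiles were -1.28 at Sp5, -1.38 at Wnt5b and -1.16 at Tfcp2l1.

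The 15 tiles with the largest falls, 1 per nearest gene, had log2 changes of -2.98 to -2.54. The nearest gene is only a label of position, since no link between a tile and a gene was measured. The tile with the largest fall lay 6.82 kb from Cryz, a quinone oxidoreductase (chr3:154630001-154632000). It held 2, 8 and 6 reads at D1, against 77, 32 and 99 at D0, or 0.22, 1.27 and 0.816 RPM at D1 and 3.33, 3.17 and 8.4 at D0. The groups did not overlap, D0 replicate 3 was well above the other D0 libraries, and the change was -2.98 ± 0.48 (limma, adjusted p = 0.00017).

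Inside Nedd9, a scaffold of focal adhesion signalling, a tile (chr13:41458001-41460000) held 4, 4 and 2 reads at D1, against 67, 27 and 33 at D0, and fell by 2.96 ± 0.46. Here the D0 libraries were close, at 2.90, 2.67 and 2.80 RPM, and the D1 libraries held 0.441, 0.637 and 0.272. Kcnip4, which encodes a potassium channel interacting protein, had a tile within the gene (chr5:48610001-48612000) with 0.661, 0.478 and 0.68 RPM at D1, against 2.77, 2.77 and 6.79 at D0. It fell by 2.79 ± 0.47, and the groups did not overlap.

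A tile 23.0 kb from Arsb, a lysosomal arylsulfatase (chr13:93966001-93968000), had 0.661, 1.12 and 1.5 RPM at D1, against 5.02, 4.95 and 6.19 at D0, and fell by 2.63 ± 0.43. One tile 72.6 kb from Atp2b1, a plasma membrane calcium pump (chr10:98840001-98842000), held 15, 9 and 11 reads at D1, against 113, 70 and 186 at D0, and fell by 2.61 ± 0.39 (limma, adjusted p = 8.5e-05). The D1 libraries lay below the D0 libraries at both. Near Nrp2 a tile (chr1:62678001-62680000) had 0.661, 1.27 and 1.63 RPM at D1, against 4.46, 4.26 and 10.8 at D0, and fell by 2.58 ± 0.46.

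The other 9 tiles of this set lay in Galnt18, Kcnj6, Dclk3 and Slc39a11 and near Spam1, Phf3, Bbs9, Rab38 and Amotl2. In Dclk3, a doublecortin-like kinase gene, a tile (chr9:111486001-111488000) held 5, 13 and 17 reads at D1, against 139, 43 and 154 at D0, and fell by 2.56 ± 0.40. In Kcnj6, a potassium channel gene, a tile (chr16:94836001-94838000) held 8, 8 and 7 reads at D1, against 94, 51 and 85 at D0, and fell by 2.60 ± 0.54. The groups did not overlap at either.

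In Galnt18, a glycosyltransferase gene, there were 6, 6 and 5 reads at D1, against 74, 31 and 80 at D0, and in Slc39a11 5, 7 and 10 reads at D1, against 105, 38 and 71 at D0. Next to Spam1, a sperm hyaluronidase gene, a tile held 1, 3 and 11 reads at D1, against 66, 21 and 93 at D0. Near Rab38, a GTPase gene of melanosome transport, a tile held 4, 7 and 2 reads at D1, against 47, 23 and 61 at D0. The tiles nearest to Phf3 and to Bbs9, a subunit of the ciliary BBSome, lay 822 and 156 kb away. In 14 of the 15 tiles D0 replicate 3 was the highest of the D0 libraries, relative to depth, and in Nedd9 replicate 1 was.

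At D2 13 of these 15 tiles had changes of -3.75 to -1.98 in TET_WT. D2 shares its D0 libraries with D1, so the values are set side by side, and a test of D2 against D1 is given only for the Amotl2 tile. The D2 minus D0 change was -3.75 near Arsb, against -2.63 at D1, and -3.73 in Galnt18, against -2.60 at D1. Near Rab38 it was -0.75 at D2, against -2.63 at D1, and near Amotl2, an angiomotin family gene, -0.49 at D2, against -2.56 at D1. In DNMT_WT at D2 the 15 tiles had changes of -3.29, near Nrp2, to -0.33, near Amotl2, and in TET_KO at D1 of -3.10, near Arsb, to -0.41, near Amotl2. The Amotl2 tile changed by -0.14 at D1 and -0.33 at D2 in DNMT_WT and by -0.41 in TET_KO; the difference of -2.41 between TET_WT and DNMT_WT in first-day change did not pass (limma, adjusted p = 0.56). At that tile the TET_WT reads were 36, 27 and 32 at D0, 3, 2 and 5 at D1, and 16, 9 and 30 at D2. The change from D1 to D2 there, 2.07 ± 0.49, did not pass (limma, adjusted p = 0.082).

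**Figure D2:**
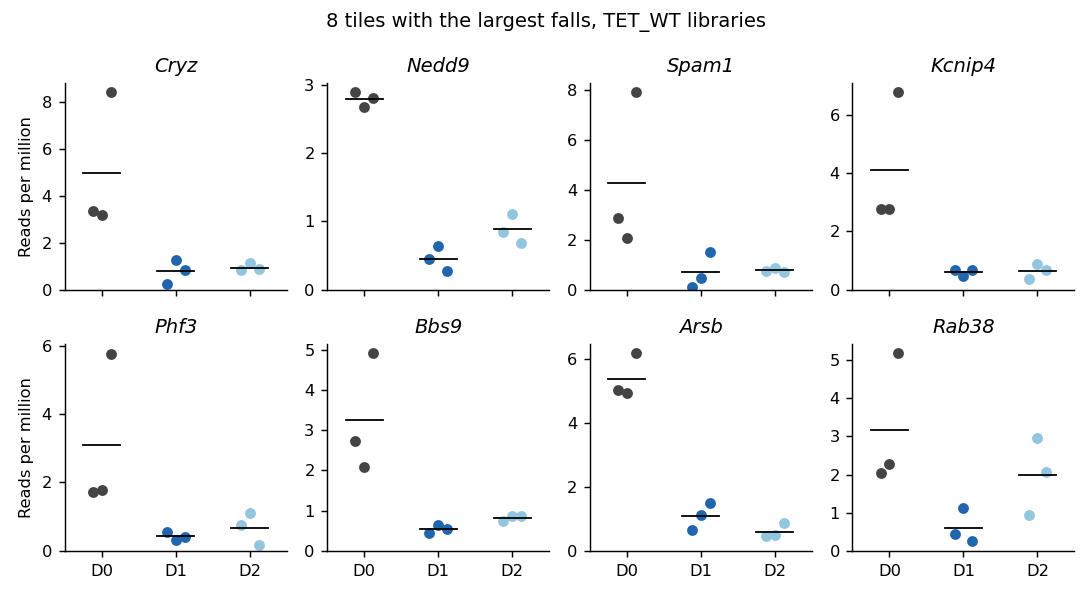
RPM (y axis; reads scaled to autosomal depth) in each TET_WT library at D0, D1 and D2 (x axis) for the 8 tiles with the largest falls, labelled by nearest gene. Points are libraries and lines are means of 3. Every D1 library lies below every D0 library, and 1 D0 library, replicate 3, is the highest in 7 of the 8 panels, the exception being Nedd9.

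The tiles that fell in TET_WT were then read in DNMT_WT and TET_KO, whose means do not enter the TET_WT change, although all 35 libraries share the normalisation, the choice of tiles and the estimate of variance. In DNMT_WT at D2 against D0, which has no D1 library, 172 of the 338 also fell (50.9%, against 2.16% of all tested tiles), and none rose. The median change there was -1.36, and 91.7% of the 338 lay below 0, against 47.7% of all tested tiles, whose median was 0.03. In DNMT_WT at D1 134 of them fell (39.6%, against 0.881% of all), with a median of -1.19. In TET_KO at D1 101 fell (29.9%, against 0.379% of all), with a median of -1.23. The count of 172 was 76 to 109 with any 1 of the 6 TET_WT libraries left out. DNMT_WT D1, TET_KO D1 and TET_WT D1 libraries share the D1 processing.

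For the 363 tiles that rose, the same libraries gave smaller shares. In DNMT_WT at D2 63 rose and 2 fell (17.4% rose, against 0.802% of all tested tiles), with a median of 0.68. At D1 67 rose in DNMT_WT (18.5%, against 0.571%) and 41 in TET_KO (11.3%, against 0.194%). In the other direction, DNMT_WT lost accessibility at 2493 tiles by D2. Of those, 172 had fallen in TET_WT by D1 (6.90%, against 0.292% of all), 80.6% lay below 0 and the median change was -0.54 at D1, beside -1.02 at D2 of TET_WT.

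**Figure D3:**
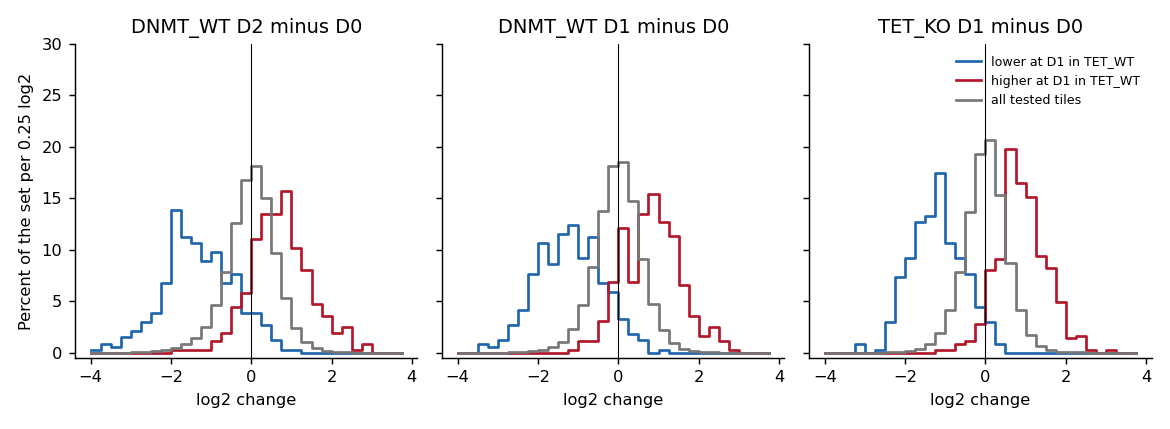
Share of tiles (y axis, percent per bin of 0.25 log2 units) by their log2 change (x axis) in DNMT_WT D2 minus D0, DNMT_WT D1 minus D0 and TET_KO D1 minus D0, for the tiles that fell (blue) or rose (red) at D1 in TET_WT and for all tested tiles (grey); changes beyond 4 log2 units are placed in the end bins. The medians of the blue curves are -1.36, -1.19 and -1.23.

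No tile passed the test of a difference in first-day change between TET_WT and DNMT_WT, or between TET_WT and TET_KO (limma, 0 of 115568 each, with 6852 and 4464 tiles at an unadjusted p under 0.05). No locus passed either test (limma, 0 of 16991 each, with 1053 and 591 at an unadjusted p under 0.05). These counts do not show that the lines changed alike. Without TET_WT D0 replicate 3, 9 tiles differed between TET_WT and DNMT_WT.

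Loci were then scored as the mean of the tested tiles that overlap a gene or lie within 50 kb of it with that gene nearest. Of 16991 loci, 70 fell (0.412%) and 75 rose (0.441%), with a median change of 0.01. Among 207 measured genes of 16 lists, 6 loci fell and 2 rose. These calls are weak: with the 6 TET_WT libraries fitted alone 0 of the 8 were called, and without TET_WT D0 replicate 1 none was.

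Of 22 naive pluripotency loci, 3 fell, Tdh and Tfcp2l1 among them, none rose, 18 had a change below 0 and the median was -0.22. In 11 of the 22 every D1 library lay below every D0 library, against 7.78% of all loci. Relative to the mean of all loci in each library, the mean level of the list was 0.02 ± 0.02 log2 units at D1 and 0.33 ± 0.06 at D0 (SD, n = 3 each). At D2 9 of the 22 were lower than D0, where 1.88% of all loci were. In DNMT_WT 3 of the 22 fell at D1, where 0.924% of all loci did, and 9 at D2, where 2.08% did, with medians of -0.35 and -0.60. In TET_KO 2 fell at D1, where 0.147% of all loci did, with a median of -0.38. On the scale as deposited, where the median tile lay 0.63 higher at D1, the TET_WT changes of the naive loci turned positive, such as 0.42 at Nanog, 0.26 at Esrrb and 0.0035 at Tfcp2l1, so their direction holds relative to the other tiles.

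Tfcp2l1 (chr1:118627923-118685168) is the naive factor with the most called tiles. Its locus level was -0.59, -0.26 and -0.31 log2 RPKM at D1, against 0.16, 0.22 and 0.38 at D0, with no overlap. The locus fell by 0.64 ± 0.14 (limma, adjusted p = 0.018), and by D2 the change was -0.998. Of its 34 tiles 30 lay below 0 and 4 fell, beside 11 lower at D2, where 1.19% of all tiles were. The lowest was 1.92 kb upstream of the gene (chr1:118624001-118626000), with 16, 8 and 9 reads at D1, against 89, 42 and 70 at D0, a change of -1.84 ± 0.37 (limma, adjusted p = 0.0033). In DNMT_WT the locus changed by -0.75 at D1 and -0.94 at D2. The call held in 1 of the 6 fits that left out a TET_WT library, with adjusted p up to 0.090.

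Tdh, threonine dehydrogenase, a metabolic enzyme on which mouse stem cells depend, had levels of 0.24, 0.55 and 0.21 at D1, against 1.33, 1.29 and 0.85 at D0. All 9 of its tiles lay below 0, none passed alone, and the locus fell by 0.82 ± 0.19 (limma, adjusted p = 0.026). The D2 change was -1.14, DNMT_WT gave -0.95 at D1 and -0.92 at D2, and the call held in 2 of the 6 fits that left out a library.

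The other naive regulators gave values that did not pass. Esrrb, an orphan nuclear receptor, changed by -0.42 ± 0.15 (limma, adjusted p = 0.21), with 43 of 47 tiles below 0, non-overlapping groups and a D2 change of -0.54. Nanog, a homeobox factor, changed by -0.32 ± 0.17 (limma, adjusted p = 0.51), and its lowest tile, 19.5 kb from the gene, held 13, 7 and 5 reads at D1, against 55, 33 and 31 at D0. Tbx3, a T-box repressor, changed by -0.35 at D1, beside -0.71 at D2. The zinc finger factors Klf4 and Klf5 stood at -0.21 and -0.17 at D1, beside -0.54 and -0.65 at D2, and Zfp42 (Rex1) at -0.02, beside -0.49 at D2. Klf2 and Tcl1 had the larger values at D1, at -0.31 and -0.49 at D1, beside -0.07 and -0.17 at D2. Prdm14 and Dppa3, germ cell and stem cell regulators, stood at -0.18 and -0.17. No naive locus passed the test of TET_WT D2 against D1 (limma), where 0.0706% of all loci were lower and 0.0118% higher, so the order of these locus values was not resolved. Among single tiles, 0.0459% of all were lower at D2 than at D1. They included a tile nearest to Klf5 (chr14:99324001-99326000), at -1.43 ± 0.29 (limma, adjusted p = 0.017). A tile nearest to Tet2, also of the naive list (chr3:133524001-133526000), stood at -1.74 ± 0.36 (limma, adjusted p = 0.021). Both were picked after their values were seen.

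**Figure D4:**
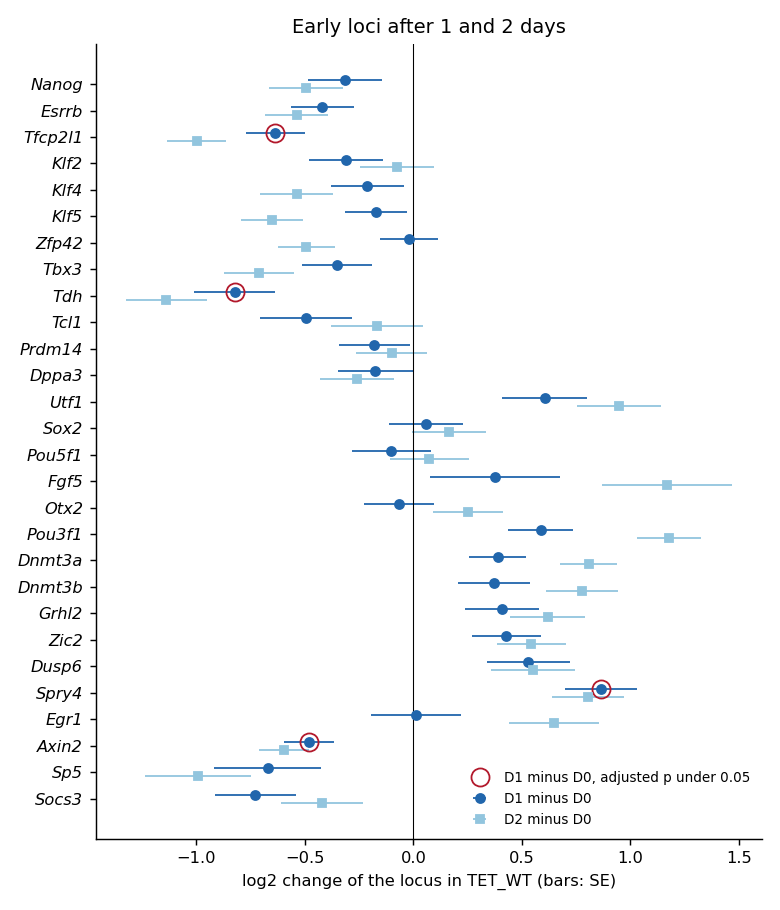
Log2 change of 28 early loci in TET_WT (x axis, log2 units; bars are SE) at D1 minus D0 (dark circles) and D2 minus D0 (light squares); both share the D0 libraries. Red rings mark the D1 changes with an adjusted p under 0.05: Tfcp2l1, Tdh, Spry4 and Axin2. On the scale as deposited the sign of 16 of the 28 turns, all of them to above 0.

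Spic, an ETS factor of the naive list, was not called as a locus, but a tile 17.0 kb from it held 7, 8 and 10 reads at D1, against 71, 29 and 58 at D0, and fell by 1.80 ± 0.43, beside -1.86 in DNMT_WT at D2. Near Gbx2, a homeobox target of LIF and STAT3, a tile rose by 1.85 ± 0.46, with 16, 10 and 13 reads at D1, against 15, 6 and 9 at D0 in deeper libraries. The Gbx2 tile changed by 0.16 at D1 and 0.15 at D2 in DNMT_WT and by 0.05 in TET_KO. These were the only tiles called for naive genes besides those of Tfcp2l1.

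In the LIF and STAT3 group 1 of 14 loci fell, Tfcp2l1, and the median was -0.12. Socs3, the feedback inhibitor that STAT3 induces, had levels of -0.04, 0.13 and 0.06 at D1, against 0.82, 0.95 and 0.57 at D0. Its groups did not overlap and all 15 of its tiles lay below 0, yet the change of -0.73 ± 0.19 missed the threshold (limma, adjusted p = 0.057). One Socs3 tile, 32.1 kb from the gene, fell by 1.77 ± 0.46, with 7, 3 and 10 reads at D1, against 43, 35 and 27 at D0. That tile changed by -0.52 at D2 in TET_WT, by -0.45 at D1 and -0.23 at D2 in DNMT_WT and by -0.46 at D1 in TET_KO, and none of these passed. At D2 the TET_WT locus stood at -0.42, and on the scale as deposited its D1 change was 0.0044. A tile 6.61 kb from Lifr, the LIF receptor, fell by 1.79 ± 0.45, with 8, 8 and 7 reads at D1, against 55, 35 and 47 at D0, beside -1.40 in DNMT_WT at D2.

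Wnt response loci showed 2 falls among 13 and a median of -0.12. Axin2, a negative regulator and standard target of Wnt signalling, had levels of -0.09, 0.05 and 0.17 at D1, against 0.45, 0.53 and 0.60 at D0. It fell by 0.48 ± 0.12 (limma, adjusted p = 0.038), with 25 of 27 tiles below 0 and none called alone. In DNMT_WT the change was 0.23 at D1 and -0.02 at D2, and in TET_KO it was -0.02 at D1; the difference between TET_WT and DNMT_WT was -0.71 ± 0.16, which did not pass over all loci (limma, adjusted p = 0.44). The Axin2 call was lost in all 6 fits that left out a library, with adjusted p up to 0.15, and on the scale as deposited the change was 0.19. Cdx1, a caudal homeobox gene responsive to Wnt, stood at -0.11, 0.15 and -0.54 at D1, against 1.00, 0.60 and 0.75 at D0, and fell by 0.95 ± 0.21 (limma, adjusted p = 0.020). The call held in 4 of the 6 fits that left out a library, with adjusted p up to 0.18, and DNMT_WT changed by -0.31 at D1 and -0.58 at D2, where neither passed. A tile inside Cdx1 held 7, 7 and 3 reads at D1, against 58, 23 and 35 at D0, and fell by 2.05 ± 0.45, beside -1.14 in DNMT_WT at D2. The Sp5 locus, with 3 tiles, changed by -0.67 ± 0.25 (limma, adjusted p = 0.24), although its start tile fell.

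**Figure D5:**
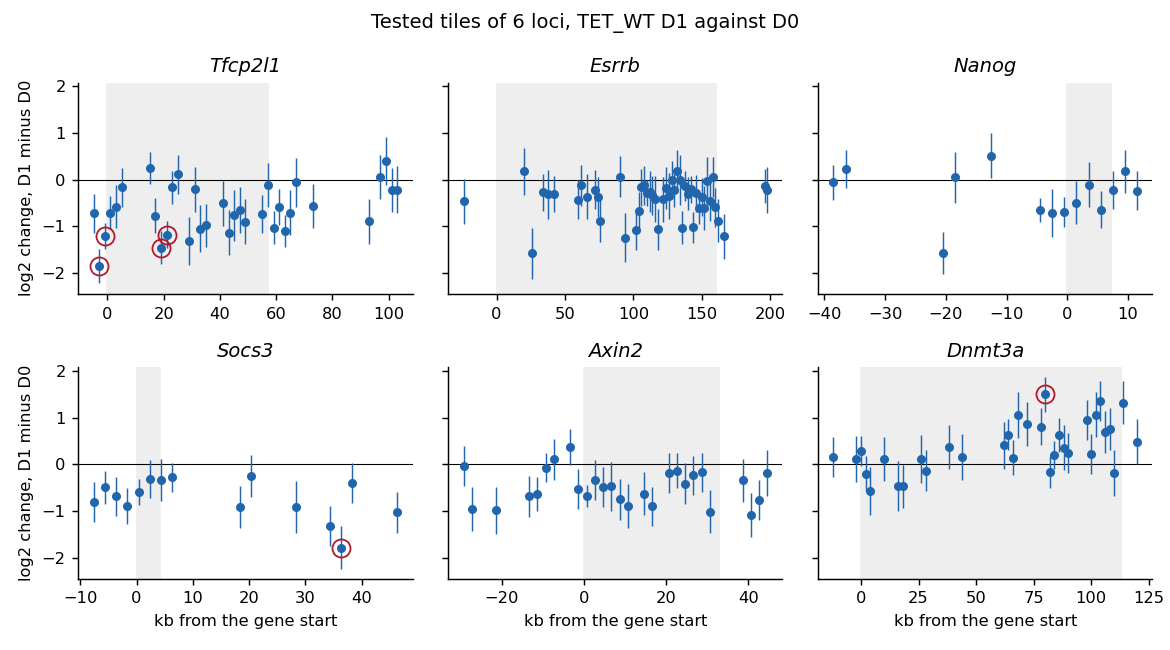
Log2 change at D1 minus D0 in TET_WT (y axis, log2 units; bars are SE) of each tested tile by its distance from the gene start (x axis, kb, along the direction of the gene) at 6 loci, with the gene body in grey. Red rings mark called tiles, 4 of them at Tfcp2l1. At Esrrb, Socs3 and Axin2 43 of 47, 15 of 15 and 25 of 27 tiles lie below 0, whereas at Dnmt3a 7 of 33 do; values are quantile normalised, and on the scale as deposited the means of Esrrb, Socs3 and Axin2 are 0.26, 0.0044 and 0.19.

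Of 18 formative loci none was called (limma; at an adjusted p under 0.05), 5 lay below 0 and the median was 0.37. In 7 every D1 library lay above every D0 library, against 8.27% of all loci. By D2 7 of the 18 were higher, where 1.1% of all loci were. In DNMT_WT 4 rose and 1 fell at D2, where 1.22% of all loci rose; at D1 none was called there or in TET_KO, where 0.795% and 0.0765% of all loci rose. Pou3f1 (Oct6), a POU factor of the formative state, stood at -0.09, -0.06 and -0.28 at D1, against -0.75, -0.67 and -0.77 at D0, a change of 0.59 ± 0.15 (limma, adjusted p = 0.053), beside 1.18 at D2. At D2 3 of its 10 tiles were higher, where 0.633% of all tiles were. Fgf5, the standard marker of the state, changed by 0.38 ± 0.30 over 3 tiles, beside 1.17 at D2, and Otx2 by -0.07, beside 0.25 at D2.

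Single tiles of the formative genes did rise. Inside Grhl2, an epithelial factor, a tile held 27, 25 and 10 reads at D1, against 19, 10 and 6 at D0, or 2.97, 3.98 and 1.36 RPM at D1 and 0.823, 0.99 and 0.509 at D0. It rose by 2.16 ± 0.51 (limma, adjusted p = 0.019). Tiles near Etv4, an ERK-responsive ETS factor, and inside Dnmt3a, a de novo methyltransferase, rose by 1.98 ± 0.44 and 1.49 ± 0.37. In DNMT_WT the Etv4 tile changed by 0.45 at D1 and 0.99 at D2, the Dnmt3a tile by 0.16 and 0.59 and the Grhl2 tile by 1.74 and 1.66, and none of these passed (limma). In all, 5 of 196 formative tiles rose (2.55%) and none fell, and 5 of 404 naive tiles fell (1.24%) and 1 rose. Among the other lists, 6 of 143 LIF and STAT3 tiles (4.20%), 3 of 77 primitive streak and mesoderm tiles (3.90%), 3 of 138 Wnt tiles (2.17%) and 2 of 113 haematopoietic tiles (1.77%) fell, against 0.292% of all tested tiles, of which 0.314% rose. The naive and the LIF and STAT3 falls are not separate, since the same 4 tiles of Tfcp2l1 count in both lists. The loci of Dnmt3a, Dnmt3b and Zic2 stood at 0.39, 0.37 and 0.43, each with non-overlapping groups and none called. Among 11 core pluripotency loci, those kept in both states, none was called. Utf1, a chromatin factor, stood at 0.60 ± 0.19, while Sox2 and Pou5f1 stood at 0.06 and -0.10.

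The rise called among ERK response loci was Spry4, a feedback inhibitor of receptor tyrosine kinase signalling. Its level was 0.61, 0.46 and 0.14 at D1, against -0.54, -0.40 and -0.43 at D0, and it rose by 0.86 ± 0.17 (limma, adjusted p = 0.0083), with 12 of 13 tiles above 0. It was called in 5 of the 6 fits that left out a library, and DNMT_WT gave 0.97 at D1 and 0.63 at D2. Dusp6, the ERK phosphatase, changed by 0.53 ± 0.19 and Egr1, an immediate early gene, by 0.01, and neither passed. Among 13 DNA methylation genes, Dnmt3l, the catalytically inactive partner of the de novo enzymes, rose by 0.67 ± 0.16 (limma, adjusted p = 0.041), at 0.13, 0.09 and 0.04 at D1, against -0.60, -0.44 and -0.71 at D0. Its call was lost in all 6 fits that left out a library, and DNMT_WT gave 0.97 at D1 and 0.72 at D2.

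Of 11 trophoblast loci, Tfap2c, an AP-2 factor that is also active in stem cells, fell by 0.78 ± 0.15 (limma, adjusted p = 0.011), at -0.01, 0.20 and 0.09 at D1, against 1.00, 0.89 and 0.72 at D0. In DNMT_WT it changed by -0.70 at D1 and -0.87 at D2, and the TET_WT call held in 2 of the 6 fits that left out a library, with adjusted p up to 0.079. No locus was called among 13 primitive endoderm, 13 primitive streak and mesoderm, 13 neuroectoderm, 16 haematopoietic, 12 Nodal, 12 BMP, 10 fibroblast or 14 housekeeping loci. Single tiles fell within Pdgfra, Snai1, Spi1 and Cbfa2t3 and near Gsc and Fgf8, at the shares of the primitive streak and mesoderm and haematopoietic lists given above and at 1 of 93 primitive endoderm tiles (1.08%). In DNMT_WT at D2 the Spi1 and Gsc tiles also fell, by 2.22 and 1.71. The changes of -0.42 at Snai1, -0.43 at Fgf8 and 0.12 at Cbfa2t3 did not pass there. In TET_KO at D1 these 3 tiles changed by -0.39, 0.45 and 0.12, and none passed. The Pdgfra tile, in the gene of a growth factor receptor that marks primitive endoderm, held 6, 4 and 4 reads at D1, against 57, 29 and 45 at D0, and fell by 2.47 ± 0.45 (limma, adjusted p = 0.0011), beside -1.56 in DNMT_WT at D2.

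The 10 largest rises, at 2.69 to 3.13 log2 units, included tiles in or nearest to Serp1, Plekha1, Jarid2, Anks1b, Spata19, Vrk2, Cntn3, Avpr1a and Rps6ka5. The tile nearest to Cntn3, a neural adhesion gene 267 kb away, held 38, 71 and 72 reads at D1, against 24, 9 and 19 at D0, and rose by 2.82 ± 0.37. Its D2 change was 2.63, and no D1 library overlapped those of D0. A tile that differed at D2 was in Jarid2, a cofactor of the Polycomb repressive complex PRC2 (chr13:44870001-44872000): it held 74, 37 and 50 reads at D1, against 30, 9 and 11 at D0, and its D2 change was -0.41. It also rose at D1 in DNMT_WT, by 2.48, and in TET_KO, by 3.18. The tile nearest to Vrk2, a kinase gene, rose by 2.85 ± 0.49 in TET_WT, where the changes at D1 were 1.05 in DNMT_WT and 0.72 in TET_KO, and in DNMT_WT at D2 1.17.

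Some falls had the same shape. Of the 338, 29 had a D2 change within 0.5 log2 units of 0 (8.58%), and 11 of the 363 rises did (3.03%). The one with the lowest adjusted p lay inside Kpna1, an importin gene (chr16:35982001-35984000), with 299, 148 and 157 reads at D0, 35, 41 and 41 at D1, and 149, 150 and 171 at D2. It fell by 1.67 ± 0.26 in TET_WT and by 1.65 ± 0.26 in TET_KO. In DNMT_WT the Kpna1 tile changed by 0.03 at D1 and 0.22 at D2, from D0 reads of 38, 14 and 50 in shallower libraries. A tile 65.1 kb from Cr2, a complement receptor gene, held 91, 45 and 47 reads at D0, 9, 7 and 6 at D1, and 60, 35 and 62 at D2. A tile 7.96 kb from Myl12b, a myosin light chain gene, held 150, 80 and 55 reads at D0, 17, 10 and 14 at D1, and 61, 65 and 96 at D2. The TET_WT D1 libraries lay lowest at all of them. In TET_KO at D1 the Cr2 and Myl12b tiles also fell, by 1.85 and 2.16. In DNMT_WT they changed by 0.21 and 0.06 at D1, from D0 reads of 9, 7 and 8 at Cr2 and 6, 7 and 6 at Myl12b. Between D2 and D1 of TET_WT 12 tiles were higher (0.0104%) and 53 lower (0.0459%); these 3 falls were among the 12, and the Jarid2 tile among the 53. The 3 were named after their values were seen, and the part of D1 processing in them was not tested.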

How the data were processed

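ATAC-seq values of 35 libraries were taken from 1 matrix with 1362779 tiles of 2 kb. The submitters' processing notes name Trim Galore 0.6.5, cutadapt 2.3, Bowtie2 2.4.1 and the mouse build GRCm38, without their roles. How duplicates, masked regions and the transposase shift were handled is not stated. Values were deposited as log2 RPKM, with a floor value for an empty tile. Whole reads could be recovered from their steps. In TET_WT, D1 columns sum to 2.04 to 2.05 times and D0 columns to 1.15 times the library total implied by 1 read, a second sign of different D1 processing. The ratio was also 1.15 in TET_WT D2, but 1.02 in DNMT_WT D0 and D2 and 2.04 in DNMT_WT D1. D0 libraries of the parental lines thus differ in this ratio too. Processing need not cancel in the first-day difference between TET_WT and DNMT_WT, and its part was not tested.

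Python 3.11.15 prepared the tiles, and R 4.3.3 with limma 3.58.1 fitted 1 mean per line and day with a mean-variance trend over all 35 libraries (23 residual degrees of freedom), 2-sided, with Benjamini-Hochberg adjustment. Genes and promoters came from RefSeq (GRCm38.p6); distances to genes were measured from the tile to the nearest protein-coding gene. Of 212 listed genes, 207 had a tested tile. The named tiles were the 15 falls and 10 rises of largest change among called tiles with non-overlapping groups, 1 per nearest gene, besides called list loci and tiles and a list of 28 early loci. Some genes that the rule picks are not reported here. Members, lists and tests were chosen with earlier results of these data known. Reads without molecular identifiers are not independent molecules, so the spread between libraries is the only error given. The fit was tested on simulated data. Alternatives covered normalisation, recovered reads, depth, pseudocount, tile filter, locus window, libraries in the fit, a replicate block and each TET_WT library left out.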

Additional observations from a re-analysis of the deposited data

Results flagged for a closer look

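Reads of 2 kinds that the comparisons do not use were present at D1 and absent at D0, the first kind by definition. In TET_WT, tiles that were empty in every D0 and D2 library of the series held 1.32, 1.66 and 1.54% of the autosomal reads at D1. The 0% at D0 follows from that choice of tiles and measures nothing. Of the 75697 such tiles, 21230 had a read in some D1 library. Mitochondrial reads made up 5.62, 19.2 and 14.1% of reads in the D1 libraries, against 0% at D0. Both were flagged because they are signal in data that the comparisons do not use, above the level in the D0 libraries. Their part in the changes at tested tiles was not tested. Groups of 3 libraries were not screened for outlying values, and no difference in first-day change between lines passed its test.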

How the results depend on the processing

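Counts below are tiles called at D1 against D0, with the values above (701 in all, 338 lower, 363 higher, 145 loci, 8 list loci, 172 falls shared with DNMT_WT D2) as the base. On the scale as deposited, 5011 tiles (29 lower, 4982 higher), 6303 loci, 87 list loci and 17 shared falls were called, so the lower share of calls was 0.579%, against 48.2% after quantile normalisation. Median centring gave 108 (51, 57), 11, 0 and 33. limma voom on recovered reads gave 2549 (1321, 1228), 332, 18 and 459. Reads in tested tiles thinned to 758348 per library gave 123 (71, 52), 11, 1 and 18. No tile filter gave 122 (78, 44), 58 loci and 34 shared. The 6 TET_WT libraries alone gave 1280 (803 lower), 1 locus and 0 list loci. A pseudocount of 5 reads gave 514 lower and 291 shared, the highest 20 percent of tiles 240 higher, and the highest 5 percent 85 loci. Leaving out 1 TET_WT library gave 261 to 649 tiles, 120 to 235 lower, 115 to 479 higher, 29 to 157 loci, 0 to 7 list loci, 76 to 109 shared falls, and 0 to 9 tiles that differed from DNMT_WT in first-day change. As deposited, D2 against D0 gave 318 tiles (2101 after normalisation), D2 against D1 1378 (65), DNMT_WT D1 8524 (1678), DNMT_WT D2 2159 (3420) and TET_KO D1 1506 (662). The alternatives for these side comparisons and for the shared count were chosen after seeing the data. The 25 named tiles kept their direction under every alternative that tested them, but 10 were not called when thinned, 5 when median centred and 3 as deposited. Signs of early loci that turned were, as deposited, Nanog 0.42, Esrrb 0.26, Tfcp2l1 0.0035, Klf2 0.39, Klf4 0.54, Klf5 0.54, Zfp42 0.65, Tbx3 0.34, Tcl1 0.18, Prdm14 0.42, Dppa3 0.50, Pou5f1 0.54, Otx2 0.63, Axin2 0.19, Sp5 0.079 and Socs3 0.0044; median centred, Zfp42 0.029 and Otx2 0.016; chromosome centred, Otx2 0.017 and Egr1 -0.088; with voom, Klf4 0.0024, Klf5 0.011, Zfp42 0.026 and Otx2 0.042; thinned, Klf5 0.0082, Zfp42 0.014, Dppa3 0.0031 and Egr1 -0.11; with the highest 20 percent of tiles, Egr1 -0.077; and with no filter, Sox2 -0.028, Fgf5 -0.0025 and Egr1 -0.15. With 1 TET_WT library left out the loci ranged over Sox2 -0.14 to 0.18, Otx2 -0.12 to 0.019, Pou5f1 -0.31 to 0.064, Egr1 -0.11 to 0.088, Zfp42 -0.12 to 0.045 and Fgf5 -0.013 to 0.75. The cause of these changes was not tested beyond each setting. None of the 8 list loci was called when median centred or thinned. With a replicate block 785 tiles were called (365 lower, 420 higher), of which 330 and 358 were in the base, 168 loci and 7 list loci, Axin2 being lost; the same-number deviations correlated at 0.158, -0.101 and 0.0814, so the numbers do not pair the libraries, and D1 replicate 2 correlated best with D0 replicate 3 (0.182). In the data simulated with the settings given above, 2% of falls of 1 log2 unit were recovered, and what limits them was not tested.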

Other observations

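Other loci outside the lists passed in TET_WT at D1 against D0 and were picked here after their values were seen. Among the falls, Kcnj12, an inward rectifier potassium channel gene, fell by 1.15 ± 0.15 (limma, adjusted p = 0.00024), and its DNMT_WT D2 minus D0 change was -1.10. Elf3, an epithelial ETS factor, fell by 0.66 ± 0.13 and Pou2f3, an epidermal and tuft cell POU factor, by 1.03 ± 0.18. Wif1, a secreted Wnt inhibitor, fell by 1.02 ± 0.23, and Macroh2a1, a histone variant, by 0.71 ± 0.15. In DNMT_WT at D2 the changes were -0.61 at Elf3, -0.81 at Pou2f3, -0.75 at Wif1 and -0.39 at Macroh2a1.

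Among the rises, Lrp2, which encodes the endocytic receptor megalin, rose by 0.96 ± 0.14 (limma, adjusted p = 0.00045), beside 0.59 in DNMT_WT at D2. Sox11, a neural SOX factor, rose by 0.91 ± 0.20 in TET_WT, and its DNMT_WT changes were 0.02 at D1 and -0.29 at D2. Pax8, a paired box factor of kidney and thyroid, rose by 0.99 ± 0.21, with 0.06 in DNMT_WT at D2. The first-day differences between the lines did not pass at any locus.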
